A study of Homo sapiens with 4 samples.

Results

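The genes described here encode the parts and regulators of the actin filament system: actins, non-muscle myosin II and its kinase, tropomyosins and related filament-binding proteins, crosslinkers, severing and capping factors, linkers between cortex and membrane, LIM proteins, and serum response factor (SRF) with its cofactors. The 48 members were selected on earlier results from these same 4 arrays: the set was drawn up with the measured differences between the cell lines known. Of the 48 genes, 43 had a probe set annotated to that gene alone, with 146 such probe sets in all, out of 19775 genes with such a probe set on the array. Each gene is read on the probe set of its own whose mean over the 4 arrays is highest. A gene was tested when that mean was at or above the median of all probe sets, 4.64 on the log2 scale, and 41 members passed, out of 12123 tested genes. ACTG1, TPM3, FLNA, FLNC and FHL1 had no probe set of their own and are not analysed here. CNN1 and ABLIM3 had one but lay under that level, with means of 4.52 and 4.30, while ACTG2 and MYL9, at 4.79 each, were the lowest members above it.

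The arrays were Affymetrix HG-U133 Plus 2.0 and the cells were UM-UC-3, a long-established line from a human bladder cancer. The control group, GFP, was UM-UC-3 stably transfected with GFP together with pBABE PURO, a plasmid for selection. The other group, GFP-RhoGDI2, was stably transfected with RhoGDI2 tagged with GFP, and both lines were sorted by FACS for the fluorescent product and sampled in log phase growth. Each group had 2 arrays, A and B; the labels state that A of one group was prepared at the same time as A of the other, and likewise B. The labels do not say how many clones or transfections stand behind each line, so differences that arose when a line was made cannot be told apart from those of the introduced gene. The free-text description of the GFP-RhoGDI2 samples repeats that of the control; their group was taken from their titles, and their source and genotype fields name the same group.

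RhoGDI2 is the protein product of ARHGDIB. In cells, actin filaments grow from monomers through formins and the Arp2/3 complex, and myosin II pulls on them once its light chain is phosphorylated, for which myosin light chain kinase is a main enzyme. Monomeric actin holds the cofactors MRTFA and MRTFB in the cytoplasm; when filaments grow, the cofactors are released, enter the nucleus and act with SRF on genes that carry a CArG box, many of which encode actin filament proteins.

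The array medians ran from 4.62 to 4.65, and correlations over probe sets were at least 0.9958 within a group and at most 0.9923 between groups. ARHGDIB itself read 6.51 and 6.27 on the GFP arrays and 11.94 and 11.58 on the GFP-RhoGDI2 arrays, in the order A and B that holds for every pair of values here. Its other tested probe sets differed by 0.94 (adjusted p = 0.00794) and −0.02 (adjusted p = 0.953). Of the urothelial and epithelial markers, 4 of the 9 with a probe set passed the filter. KRT8 (9.80 and 9.58 in GFP, 8.52 and 8.39 in GFP-RhoGDI2, adjusted p = 0.00278) and KRT18 (13.60 and 13.61, then 12.99 and 13.03, adjusted p = 0.0225) were lower in GFP-RhoGDI2; the KRT18 call was lost with any array left out (adjusted p from 0.0720 to 0.120) and the KRT8 call was not. KRT7 (6.16 and 6.24, then 6.25 and 5.84, adjusted p = 0.530) and GATA3 (5.37 and 5.40, then 5.43 and 4.94, adjusted p = 0.428) overlapped between the lines. KRT19, EPCAM, CDH1, UPK2 and UPK3A lay under the filter level on the arrays of both lines. The summed log2 level of the 9 markers was 52.1 to 52.7 in GFP and 49.4 to 50.3 in GFP-RhoGDI2. KRT8 (−1.23) and KRT18 (−0.59) had the widest differences in that sum, and GATA3 was next at −0.20.

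A few genes stood apart from the rest of the set. ABLIM1, MYLK, EPS8, MARCKS, KANK1 and TPM2 were higher in GFP-RhoGDI2 at an adjusted p under 0.05 (limma with preparation as a block, Benjamini-Hochberg over 27307 probe sets). That is 6 of 41 members, 14.6%, beside 4.83% of all tested genes; the members were chosen with these differences known, and the count is a description. Of the 6, 5 were at least 2-fold higher, which held for 1.30% of all tested genes. No member was called lower, where 3.35% of all tested genes were; at an unadjusted p under 0.05 there were 17 members higher and 0 lower, beside 13.1% and 14.0% of all tested genes. The median difference over the 41 members was 0.15 on the log2 scale, against −0.01 over all tested genes, and it was 0.19 in preparation A and 0.22 in preparation B. In bulk RNA, a change in the number of cells that express a gene and a change in RNA per cell cannot be told apart. Whether A and B were grown from separate cultures is not given beyond their different times of preparation. The p-values draw in part on the spread of the line difference over those 2 preparations. They draw more on a spread pooled over all fitted probe sets, with 4.71 prior degrees of freedom against 1 residual degree.

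**Figure D1:**
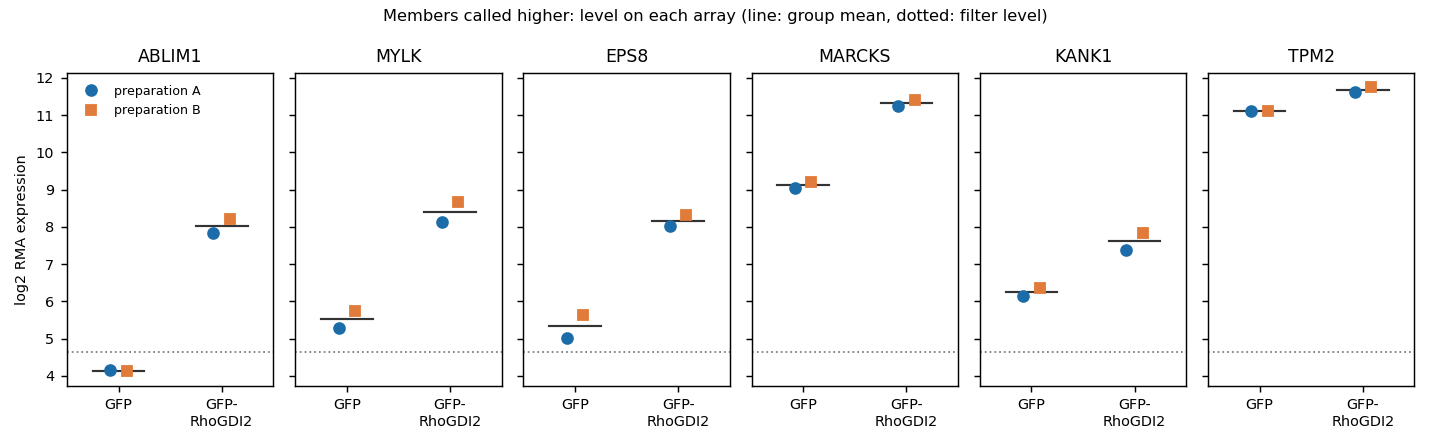
Level of the 6 members called higher on each array (y axis, log2 RMA expression; x axis, cell line; circles, preparation A; squares, preparation B; line, group mean; dotted line, the filter level of 4.64). Both GFP-RhoGDI2 arrays sit above both GFP arrays in every panel, and ABLIM1 in GFP is the only group under the filter level.

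ABLIM1, an actin-binding LIM protein, read 4.15 and 4.12 in GFP and 7.84 and 8.21 in GFP-RhoGDI2. Both control arrays lay under the filter level, so ABLIM1 entered the test only through the line in which it is high. The difference was 3.89 on the log2 scale (SE 0.125, 95% interval 3.58 to 4.20), a fold of 14.8 (adjusted p = 1.93e-04). The values carry no detection call, so the GFP level is not shown to be above background, and the fold depends on it. A second ABLIM1 probe set read 4.13 and 4.12 in GFP and 4.74 and 5.19 in GFP-RhoGDI2; its mean was under the filter level and it was not tested. Its difference, 0.84, had the same direction at a much smaller size, and the mean over both probe sets differed by 2.37.

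No other LIM or PDZ-LIM protein was called. FHL2, a LIM-only protein described as an SRF target and cofactor, read 11.53 and 11.82 in GFP and 11.99 and 12.23 in GFP-RhoGDI2, with both pairs apart but a call just missed (difference 0.43, adjusted p = 0.0516). TPM2 was the member just inside the threshold (0.0260), and FHL2 and TAGLN2 (0.0519) were the first outside it. PDLIM7 read 7.08 and 6.97 against 7.14 and 7.21. PDLIM5, a scaffold that binds α-actinin and kinases, read 9.52 and 9.64 in GFP and 9.22 and 9.87 in GFP-RhoGDI2, so the lines overlapped and the preparations pointed in opposite directions. ABLIM3, a paralogue of ABLIM1, stayed near the low end at 4.27 and 4.23 against 4.13 and 4.55.

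MYLK encodes myosin light chain kinase, which phosphorylates the regulatory light chain and so switches on myosin II. It read 5.30 and 5.76 in GFP and 8.13 and 8.67 in GFP-RhoGDI2, group means of 5.53 ± 0.32 and 8.40 ± 0.38 (SD, n = 2). The difference was 2.87 (SE 0.0934, interval 2.64 to 3.10), a fold of 7.31 (adjusted p = 1.93e-04). The 2.83 in preparation A and 2.91 in preparation B were closer to each other than the arrays within either group. A second MYLK probe set rose as well, from 5.67 and 5.39 to 7.02 and 7.49 (difference 1.72, adjusted p = 0.00769). The remaining 3 probe sets of MYLK were under the filter level, between 2.75 and 4.15 on all arrays.

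MYLK was also the only called member with a CArG box in a promoter window, out of 5 called genes with a window in the RefSeq table (GRCh38.p14). The motif searched was CC, then 6 bases that are each A or T, then GG, which reads the same in form on either strand. MYLK had 1 window in the table. Which transcript of the gene starts there, and whether that transcript encodes the kinase, was not examined. The box is therefore not tied to the transcript that the probe sets read. The 250 bases upstream of this annotated start are shown because MYLK had the widest change in the myosin group and the window holds the motif. They lie at chr3:123620549-123620798 on the minus strand, and the capitals, from base 157 of the window, mark the box.
MYLK: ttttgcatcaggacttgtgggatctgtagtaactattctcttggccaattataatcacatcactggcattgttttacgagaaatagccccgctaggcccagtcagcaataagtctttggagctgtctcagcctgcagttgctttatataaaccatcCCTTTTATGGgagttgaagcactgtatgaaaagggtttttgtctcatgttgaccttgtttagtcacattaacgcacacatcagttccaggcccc

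The myosin II subunits were not called. The heavy chain gene MYH9 read 9.06 and 8.97 in GFP and 9.26 and 9.31 in GFP-RhoGDI2, and the essential light chain gene MYL6 read 12.38 and 12.36 against 12.61 and 12.70. Both pairs were apart, by 0.27 and 0.28. The regulatory light chain gene MYL12A read 10.84 and 11.16 against 11.12 and 11.48; the lines overlapped although the difference within each preparation was 0.28 and 0.31. MYH10, the other heavy chain, read 10.62 and 10.58 against 10.59 and 10.57. Its other probe set read 6.32 and 5.95 against 5.88 and 5.77 (difference −0.31), lower on both GFP-RhoGDI2 arrays without a call. MYL9, the light chain of smooth muscle type, was low at 4.79 and 4.87 against 4.91 and 4.60. Over the 6 members of the group, 1 was called and the median difference was 0.28.

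EPS8, which caps filament barbed ends and bundles filaments, read 5.02 and 5.65 in GFP and 8.02 and 8.31 in GFP-RhoGDI2. The difference was 2.83 (SE 0.116, interval 2.54 to 3.12), a fold of 7.10 (adjusted p = 3.53e-04). It rested on the only probe set for the gene. The lines were 2.66 apart in preparation B and further apart in A, far wider than the gap of 0.63 between the GFP arrays. Among the other crosslinkers, ACTN4 (non-muscle α-actinin) read 10.18 and 10.01 against 10.43 and 10.48. ACTN1 read 12.55 and 12.61 against 12.38 and 12.58, and each of its 4 probe sets had a negative difference, between −0.22 and −0.10, none called. FSCN1, the bundling protein of filopodia, read 8.43 and 8.23 against 8.61 and 8.27. The representative probe sets of ACTN1 and FSCN1 overlapped between the lines, whereas the other 3 of ACTN1 were lower on both GFP-RhoGDI2 arrays.

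MARCKS, a membrane-bound protein that crosslinks actin and binds phosphoinositides until protein kinase C releases it, read 9.04 and 9.21 in GFP and 11.25 and 11.41 in GFP-RhoGDI2. The difference was 2.20 (SE 0.0919, interval 1.98 to 2.43), a fold of 4.61 (adjusted p = 3.55e-04). All 5 of its probe sets were called higher, with differences from 1.84 to 2.63. Its paralogue MARCKSL1 read 9.63 and 9.62 against 9.85 and 9.84, which separates the lines by 0.22 without a call. No probe of the 2 genes was set against the other, and the difference between their responses was not tested.

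KANK1, an adaptor at the rim of adhesions that restrains stress fibre formation, read 6.15 and 6.35 in GFP and 7.39 and 7.84 in GFP-RhoGDI2. The difference was 1.36 (SE 0.107, interval 1.10 to 1.63), a fold of 2.57 (adjusted p = 0.00301). A second tested KANK1 probe set went against it, at 5.17 and 5.19 in GFP and 5.12 and 4.96 in GFP-RhoGDI2 (difference −0.14, adjusted p = 0.414). With all 3 probe sets averaged, the difference was 0.49. KANK2 read 8.13 and 8.08 against 8.07 and 8.15, with no separation. Of the ERM proteins, which tie filaments to the membrane, MSN read 11.67 and 11.63 against 11.90 and 12.10. EZR (9.98 and 9.89, then 9.99 and 9.72) and RDX (11.66 and 11.54, then 11.56 and 11.61) overlapped between the lines. Of the 5 tested EZR probe sets, 4 had a positive difference, up to 0.30, and 0 were called.

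TPM2 encodes β-tropomyosin, which lies along the filament and stabilises it. It read 11.10 and 11.11 in GFP and 11.63 and 11.74 in GFP-RhoGDI2, a difference of 0.58 (SE 0.0945, interval 0.34 to 0.81) and a fold of 1.49 (adjusted p = 0.0260). The other tested TPM2 probe sets had the opposite sign: −0.09 (7.87 and 7.88, then 7.99 and 7.59) and −0.25 (6.22 and 5.96, then 5.93 and 5.74), neither called. Averaged over its probe sets, TPM2 differed by 0.05 (adjusted p = 0.721). The call was lost when any of the 4 arrays was left out, with adjusted p from 0.0792 to 0.162 and differences from 0.52 to 0.64. As for ABLIM1, MARCKS and KANK1, the probe set that was called carries the suffix _s_at, which marks probes that can match several transcripts. It was the only one of the 6 calls lost when an array was left out.

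The rest of the filament-binding group followed in a narrow band. TAGLN2 read 10.21 and 9.99 in GFP and 10.62 and 10.44 in GFP-RhoGDI2, and the separation of 0.43 missed the call at an adjusted p of 0.0519. TPM1 read 12.87 and 12.99 against 13.11 and 13.36, and TPM4 10.09 and 10.02 against 10.37 and 10.28; both separated the lines. CNN2, a calponin, read 8.18 and 8.08 against 8.23 and 8.31. CNN3 was the only member of this group below zero in both preparations, at 10.43 and 10.70 against 10.26 and 10.48 (difference −0.19). Its other probe set had the opposite sign, with a difference of 0.09, and overlapped between the lines. CALD1, caldesmon, read 12.17 and 12.37 against 12.00 and 12.47, and TAGLN, an SRF target of smooth muscle, 5.57 and 5.33 against 5.51 and 5.41. Neither separated the lines. CNN1, the smooth muscle calponin, read 4.10 and 4.58 against 4.56 and 4.83, under the filter level as a mean.

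The actins themselves showed no call. ACTB, the main cytoplasmic actin, read 14.09 and 14.01 in GFP and 14.14 and 14.15 in GFP-RhoGDI2, a separation of 0.09 with an interval from −0.14 to 0.32. ACTA2, smooth muscle α-actin, read 5.54 and 5.67 against 5.84 and 5.74. ACTG2, the enteric smooth muscle actin, read 4.80 and 4.68 against 5.06 and 4.61 and overlapped. Its other probe set was under the filter level and not tested. It read 4.05 and 4.35 in GFP and 4.53 and 4.52 in GFP-RhoGDI2, a difference of 0.32.

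Severing and capping factors were not called either. DSTN, destrin, which severs filaments as cofilin does, read 12.75 and 12.75 in GFP and 13.08 and 13.19 in GFP-RhoGDI2 (difference 0.38, adjusted p = 0.0696). Its other probe sets were called higher: 0.49 (adjusted p = 0.0386) and 0.72 (adjusted p = 0.0290). CAPZB, a barbed-end capping subunit, read 10.30 and 10.17 against 10.49 and 10.67. The cofilins CFL1 (13.53 and 13.51, then 13.65 and 13.61) and CFL2 (10.99 and 10.93, then 11.12 and 11.03) separated the lines by 0.11 and 0.12. GSN, gelsolin, overlapped at 6.96 and 7.16 against 6.89 and 7.33. CAPZA1, the partner of CAPZB, was lower on both GFP-RhoGDI2 arrays by 0.03, at 12.21 and 12.20 against 12.19 and 12.16.

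**Figure D2:**
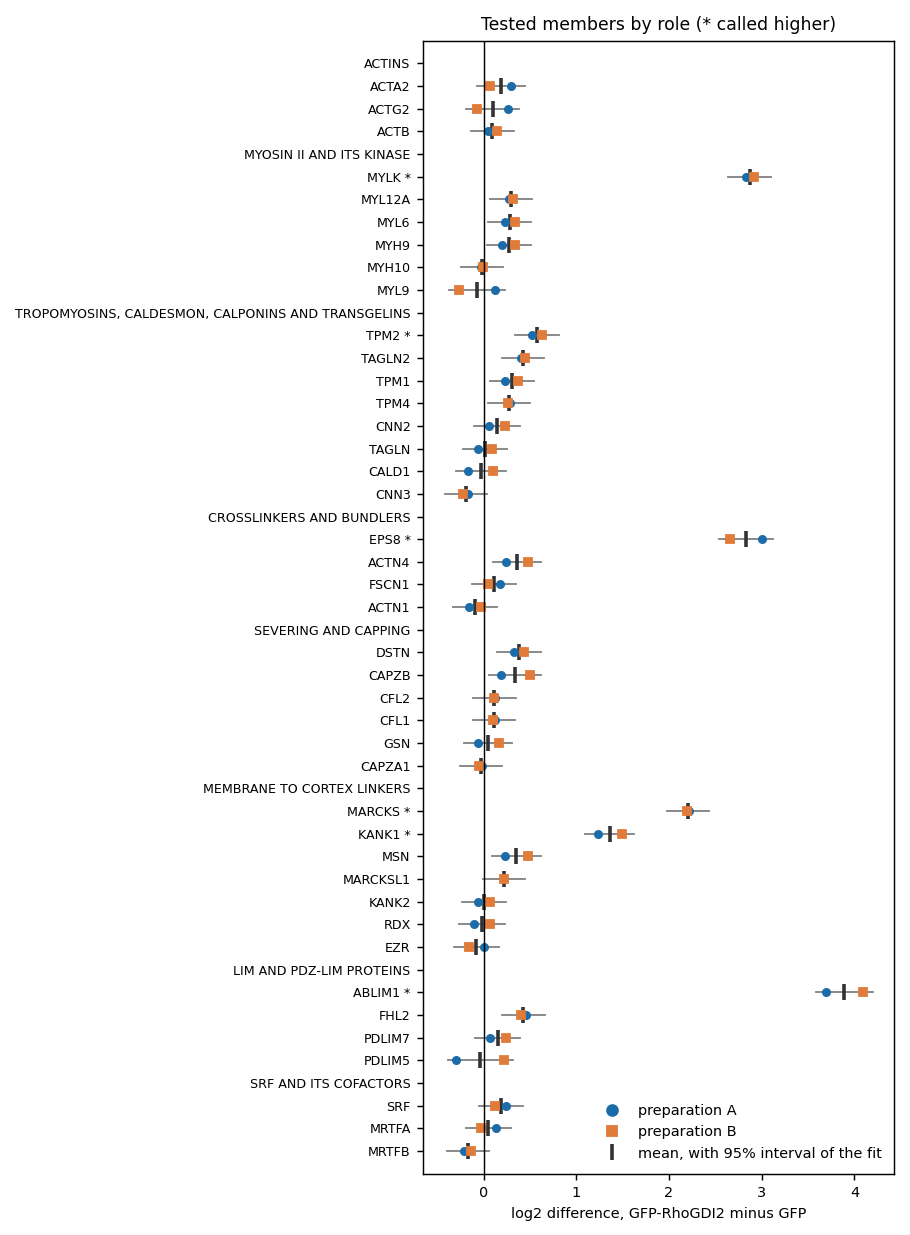
Log2 difference, GFP-RhoGDI2 minus GFP, of the 41 tested members grouped by role (circle, preparation A; square, preparation B; dark tick with line, mean and 95% interval of the limma fit; asterisk, called higher). ABLIM1, MYLK, EPS8, MARCKS and KANK1 lie at 1.36 or above, TPM2 at 0.58, and the other 35 between −0.19 and 0.43.

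The 35 members without a call had a median difference of 0.11, with standard errors from 0.0918 to 0.142. Among them, 12 differed by at least 0.2 and 0 by −0.2 or less. Over all 41, both GFP-RhoGDI2 arrays were above both GFP arrays for 24 members, where 25.6% of all tested genes were, and below for CAPZA1 and MRTFB alone, where 29.0% were; 15 overlapped. Because the set was chosen on this contrast, nothing is read from those counts. The difference had a positive sign in both preparations for 26 members, a negative sign in both for 5, and opposite signs for 10. The uncalled members given by their values here were named after those values were seen.

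Probe sets allow a further look at the same genes. Of 109 tested member probe sets, 16 were called higher and 0 lower, in 10 genes, beside 4.63% of all tested probe sets called higher. Of these 16, 10 were not the one that represents the gene. MYL12A (0.52, adjusted p = 0.0397), TPM1 (0.48, adjusted p = 0.0394), TAGLN2 (0.47, adjusted p = 0.0396) and DSTN were called only on such probe sets. Among the 28 genes with 2 or more tested probe sets, all were positive in 12 genes, all negative in 2 and mixed in 14. Only MARCKS and MYLK had several tested probe sets with every one called.

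**Figure D3:**
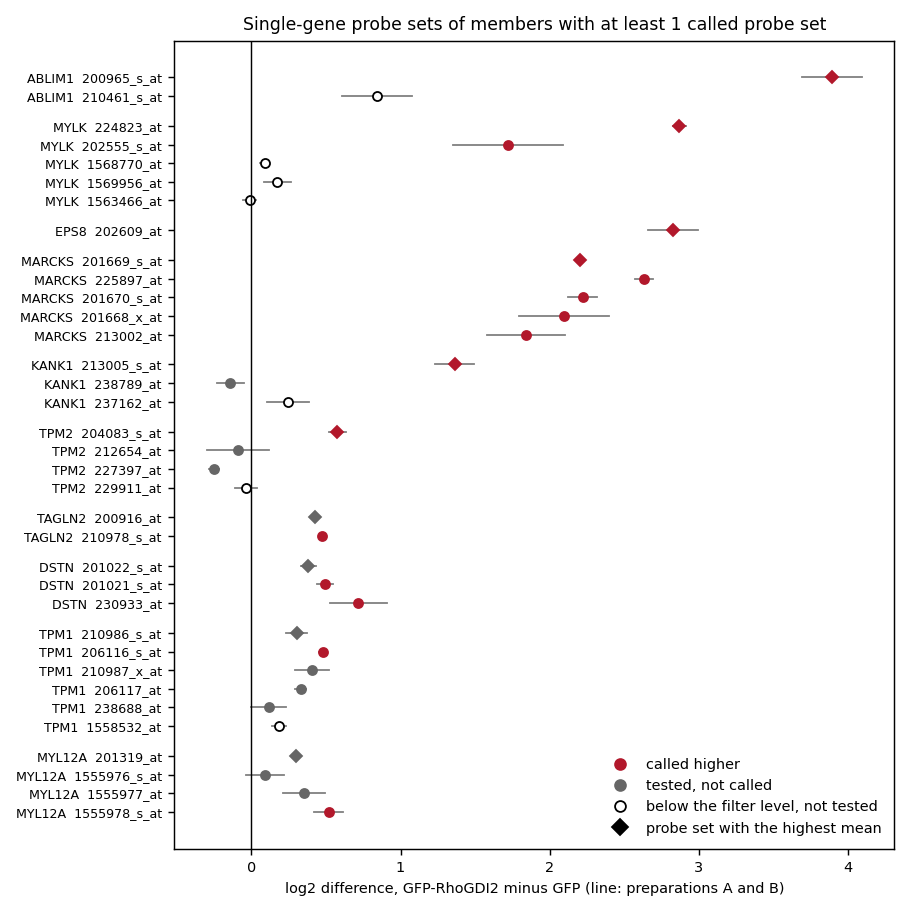
Log2 difference, GFP-RhoGDI2 minus GFP, of every single-gene probe set of the 10 members with at least 1 called probe set (point, mean of both preparations; line, from one preparation to the other; diamond, probe set with the highest mean; red, called higher; grey, tested and not called; open, under the filter level). The 5 MARCKS probe sets lie together from 1.84 to 2.63, whereas those of KANK1 and TPM2 fall on both sides of zero.

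SRF and its cofactors showed no call. SRF read 8.26 and 8.24 in GFP and 8.50 and 8.36 in GFP-RhoGDI2, a separation of 0.19 (interval −0.05 to 0.42, adjusted p = 0.278). The other SRF probe set differed by −0.04 and overlapped between the lines. MRTFA read 6.37 and 6.47 against 6.50 and 6.44 and overlapped. Its other tested probe sets disagreed in sign, with differences of 0.28, 0.04 and −0.20, none called. MRTFB read 7.85 and 7.88 against 7.64 and 7.75, lower on both GFP-RhoGDI2 arrays by 0.17 without a call. These are transcript levels; the place and activity of the cofactors, on which SRF output turns, were not measured.

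CArG boxes were common in the promoter windows of the set, which was in part made up of known SRF targets. RefSeq windows of 300 bases, 250 before the start to 50 after it, were matched for 43 of the 48 members, 96 windows in all. A box was found in 12 windows (12.5%), in 10 genes, against 454 of 35116 windows over all genes (1.29%). ACTB, TAGLN, MYL9, FSCN1 and EPS8 had no window in the table. Beside MYLK, boxes lay in windows of ACTG1, ACTG2, ACTN1, CNN2, FHL1, FHL2, FLNA, SRF and TPM4. The FHL2 box at chr2:105438590-105438629 lay in overlapping windows of that gene and was counted in each. Below, the FHL2 starts are numbered by chromosome position, and the second stands for those overlapping windows. The tested members with a box follow with 15 bases on each side, boxes in capitals, because they let the motif be read against the differences given above. They lie at chr2:73892883-73892959 (plus strand, 2 boxes, ACTG2), chr2:105399086-105399125 and chr2:105438590-105438629 (minus strand, FHL2), chr6:43171224-43171283 (plus strand, 2 boxes, SRF), chr19:1026504-1026543 (plus strand, CNN2), chr19:16067350-16067389 (plus strand, TPM4) and chr14:68977713-68977752 (minus strand, ACTN1).
ACTG2: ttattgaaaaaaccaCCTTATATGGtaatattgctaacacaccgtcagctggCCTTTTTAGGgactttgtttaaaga
FHL2, first start: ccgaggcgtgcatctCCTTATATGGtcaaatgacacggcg
FHL2, second start: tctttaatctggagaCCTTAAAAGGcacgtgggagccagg
SRF: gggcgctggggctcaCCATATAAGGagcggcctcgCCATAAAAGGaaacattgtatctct
CNN2: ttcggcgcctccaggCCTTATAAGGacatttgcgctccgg
TPM4: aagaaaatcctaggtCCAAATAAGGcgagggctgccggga
ACTN1: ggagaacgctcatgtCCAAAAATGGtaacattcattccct

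The 7 tested members with a box had a median difference of 0.19 and ranged from −0.10 for ACTN1 to 2.87 for MYLK. The 29 tested members that had a window without a box had the same median, 0.19, and ranged from −0.19 to 3.89. ABLIM1, MARCKS, KANK1 and TPM2 were called and had no box in their windows. ACTG2, with 2 boxes, overlapped between the lines on the tested probe set, while its untested one was higher on both GFP-RhoGDI2 arrays. A match to the motif is a description of the sequence, and no match says only that these letters are not in the window.

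The wider pathway was followed over 41 genes that are not members, of which 33 were tested; 2 were called higher and 0 lower, beside 4.83% and 3.35% of all tested genes, so the share called was near that of the array. At an unadjusted p under 0.05, 11 were higher and 2 lower (CORO1C and SMTN), beside 13.1% and 14.0% of all tested genes. The median difference was 0.13. Of 24 tested genes for branched and linear actin assembly, 2 were called higher, both thymosins that bind actin monomers. TMSB4X read 12.84 and 13.03 in GFP and 13.70 and 13.79 in GFP-RhoGDI2 (difference 0.81, adjusted p = 0.0102). TMSB10 read 13.85 and 13.70 against 14.39 and 14.29 (difference 0.57, adjusted p = 0.0252). The TMSB4X call was lost without GFP-RhoGDI2 A (adjusted p = 0.0592) or GFP-RhoGDI2 B (0.0882) but held without either GFP array, and the TMSB10 call was lost with any array left out (0.0629 to 0.170). The median difference of this list was 0.12. Of 9 tested further targets of SRF and its cofactors, 0 were called, 3 were higher and 1 lower at an unadjusted p under 0.05, and the median was 0.17.

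Markers of other cell types were read because several members are also smooth muscle genes. Of the 7 smooth muscle markers, which include the members ACTG2 and CNN1, 4 were tested and 0 called, 2 being higher at an unadjusted p under 0.05. Their summed log2 level was 33.5 on both GFP arrays and 34.6 to 34.7 in GFP-RhoGDI2, and MYOCD, LMOD1 and CNN1 lay under the filter level. The sum moved in the same direction as the members, but ACTG2 (0.10) and CNN1 (0.36) are in both. The shared direction is thus in part built in. Of the tested markers that are not members, SYNM (0.34) and MYH11 (0.26) were higher and DES (−0.13) lower. The part of these markers in the members' differences was not tested. KRT8 and KRT18 went the opposite way, and their part was not tested either. Fibroblast markers (2 of 7 tested), macrophage markers (1 of 4) and lymphoid and blood cell markers (2 of 7) had 0 calls in limma, and 0 at an unadjusted p under 0.05.

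**Figure D4:**
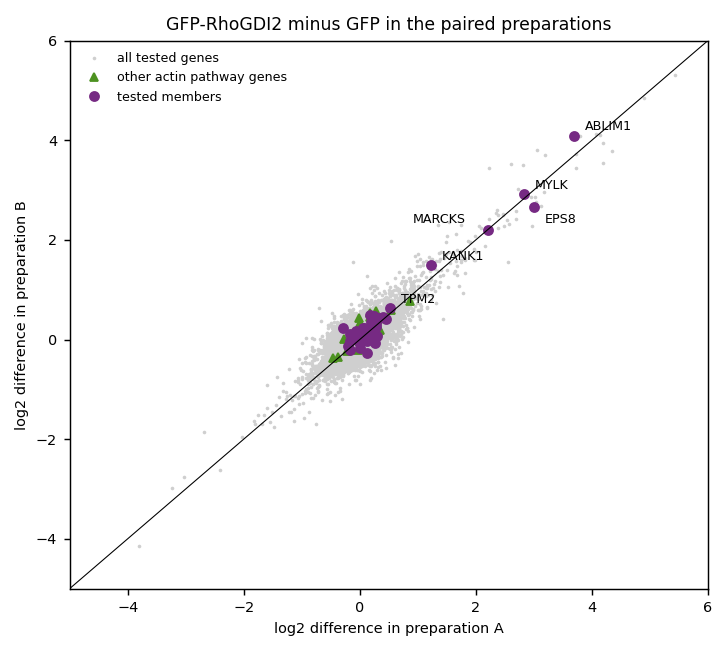
Log2 difference, GFP-RhoGDI2 minus GFP, in preparation A (x axis) against preparation B (y axis) for all 12123 tested genes (grey), the 33 tested pathway genes (green triangles) and the 41 tested members (purple circles), with the line of equality. The 6 called members lie near the line, from TPM2 at 0.52 and 0.63 to ABLIM1 at 3.69 and 4.09, and most others crowd around zero.

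The preparations themselves offer a contrast that did not choose the members. Set against A within both lines, preparation B gave a median difference of 0.02 over the 41 members and −0.02 over all tested genes, with members from −0.29 to 0.50. No gene was called, so the share of calls was 0% over all genes, and the lowest adjusted p among members, 0.369, was also the lowest of all genes. At an unadjusted p under 0.05 there were 11 members, beside 10.0% of all tested genes. With the variance prior allowed to follow intensity, TPM1, CALD1, FHL2, MYL12A and MYLK were called between preparations, beside 1.57% of all tested genes. The sign of B minus A was the same in both lines for 27 of the 41 members.

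MYLK had the highest B minus A, 0.50, with 0.46 in GFP and 0.54 in GFP-RhoGDI2. EPS8 followed at 0.46, with 0.63 and 0.29, so both genes were higher in B in each line. CALD1 was 0.34 higher in B, and 8 of its 10 tested probe sets were higher in B in both lines, although it did not differ between the lines. ACTG2 (−0.29) and FSCN1 (−0.27) were lower in B in both lines. For MYLK and EPS8 the difference between the lines was thus several times wider than the difference between preparations, whereas for MYL12A the 2 were alike, 0.30 between the lines and 0.34 between preparations.

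The number of called members turned on the settings of the fit, while ABLIM1, MYLK, EPS8 and MARCKS were called in every setting that tested them. Without the block for preparation the same 6 members were called, beside 3.30% of all tested genes called higher. The fits with an array left out had no block either. With any array left out, 5 were called, all but TPM2, while the share of all tested genes called higher was 2.32% without GFP A, 2.55% without GFP B, 1.53% without GFP-RhoGDI2 A and 1.14% without GFP-RhoGDI2 B. Without _s_at and _x_at probe sets, 4 of 33 members were called higher, beside 4.21% of all genes tested so. With an intensity trend in the variance prior, 19 members were called higher and 1, CNN3, lower, beside 11.6% and 12.2% of all tested genes. When only probe sets in the upper quartile of mean level were tested, 13 of 32 members were called higher, beside 12.1% of all genes tested so. ABLIM1, MYLK, EPS8 and KANK1 were among the members that did not reach that level. With all probe sets of a gene averaged, 12 of 35 members were called higher, beside 10.9% of all genes.

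**Figure D5:**
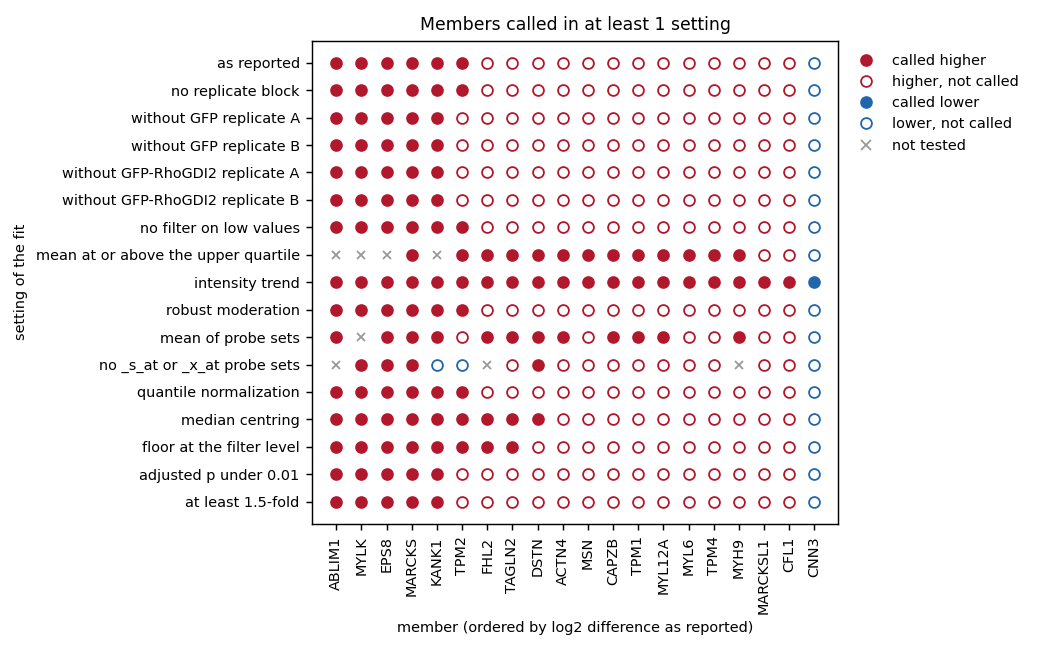
Calls for the 20 members called in at least 1 setting (x axis, ordered by their log2 difference as reported; y axis, setting of the fit; filled, called; open, tested and not called; red, higher; blue, lower; cross, not tested). ABLIM1, MYLK, EPS8 and MARCKS are filled wherever they were tested, KANK1 and TPM2 turn blue without _s_at and _x_at probe sets, and an intensity trend fills all 20 columns.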

How the data were processed

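Total RNA (6 µg per array, per the labels) from 4 samples was hybridised to HG-U133 Plus 2.0 arrays. The deposited table holds log2 values for each probe set; the submitters' processing notes name RMA as the authors' method, while its software and which arrays were normalised together are not stated there. Arrays have no read depth, and their number limits the precision. Of 54675 probe sets, 62 controls were left out. Platform annotation named 1 gene for 41091 probe sets, several for 1801 and did not list 11721.

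Probe sets with a mean at or above 4.64 (27307) were fitted with limma 3.58.1 in R 4.3.3 (lmFit, eBayes) with preparation as a block, which the labels state; B minus A differences of the lines correlated at r = 0.264. There was 1 residual degree of freedom, with 4.71 prior degrees and a prior SD of 0.101. Adjusted p-values are Benjamini-Hochberg over all fitted probe sets, called under 0.05; intervals are at 95%. The members, roles, pathway lists and marker lists were chosen with earlier results of these data known. Statistics are given for members past the threshold and for pathway genes called; each other member is given by its array values. Levels of different genes' probes were not compared. As alternatives, the block was dropped, arrays were left out singly, and filters, moderation, normalisation, probe set rules and thresholds were varied. Fits with an array left out were made without the block, so they lost an array and the pairing together. The results of 2 further pathway lists are not reported here.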

Additional observations from a re-analysis of the deposited data

How the results depend on the processing

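The fit without the preparation block gave the same count of 6 members called higher, with TPM2 at an adjusted p of 0.0311. Among the called members, KANK1 (−0.143, adjusted p = 0.494) and TPM2 (−0.0896, adjusted p = 0.740) reversed when _s_at and _x_at probe sets were left out, because another probe set then represented the gene; DSTN, EPS8, MARCKS and MYLK were then called, and ABLIM1 was not tested. Members called higher numbered 13 in the upper quartile of mean level, 19 with an intensity trend (which also called 1 lower, CNN3), and 12 with the mean of probe sets; the share of all genes called higher rose too, to 12.1%, 11.6% and 10.9%. The median member difference was 0.105 without _s_at and _x_at probe sets and ran from 0.151 to 0.204 with an array left out. For the pathway lists, with 2 genes called higher and 0 lower as reported, leaving out an array gave 0 to 1 higher. The count higher was 8 in the upper quartile, 12 with an intensity trend, 6 with the mean of probe sets, 1 at 1.5-fold, and 0 both without _s_at and _x_at probe sets and at an adjusted p under 0.01. The count lower was 2 in the upper quartile, 3 with an intensity trend, 2 with the mean of probe sets and 2 with median centring. Fewer probe sets were tested in the upper quartile, and the variance prior was fitted anew on them. The cause of the moves in these counts was not tested. With 2 arrays per line and standard errors near 0.0918 at their lowest, no member difference of 0.43 or less was called in the reported fit. Levels near the low end carry no detection call here.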
